A study of Mus musculus with 24 samples.

Results

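The 40 genes described here carry fatty acids from the blood into the muscle fibre and through the mitochondrial matrix. They were taken by name from a written list: 4 genes of uptake and cytosolic binding, 2 of activation to acyl-CoA, 6 of the carnitine shuttle and its malonyl-CoA control, 4 acyl-CoA dehydrogenases, 5 of the hydratase, hydroxyacyl dehydrogenase and thiolase steps, 3 enzymes for unsaturated chains, 2 acyl-CoA thioesterases, 3 of the electron transfer flavoprotein branch, 3 of fuel switching and uncoupling, 6 of lipases, lipase control and lipid droplets, and 2 nuclear receptors. All 40 were present among the 55487 genes of the count files, and all 40 passed the filter on low counts in every comparison.

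Muscle takes up long-chain fatty acids that lipoprotein lipase frees from circulating triglyceride or that lipases free from its own lipid droplets. The acids are tied to coenzyme A, handed to carnitine at the outer mitochondrial membrane, carried inward, and shortened by repeated turns of dehydrogenation, hydration, a further dehydrogenation and thiolysis. Malonyl-CoA restrains entry through the carnitine step, pyruvate dehydrogenase kinases hold back the oxidation of glucose, and the nuclear receptors encoded by *Ppara* and *Ppard* switch on many of these genes when fatty acids are plentiful, as in fasting and endurance exercise.

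The libraries came from the tibialis anterior, a fast muscle of the lower leg, of 24 male wild-type C57BL/6J mice aged 5 to 7 weeks, 1 library from each mouse. Photobiomodulation (PBM) was near-infrared light from an LED panel at 830 nm, given under anesthesia for 20 min at 25 mW/cm2 to a total of 30 J/cm2, and the tissue was taken 24 h later. The 4 groups of 6 mice were sedentary controls, sedentary PBM mice, fatigued controls and fatigued PBM mice; controls had the same shaving and anesthesia without light, and fatigued mice ran on a treadmill to exhaustion 24 h after the light or its control and were then dissected. No group received another light or heat in place of PBM, the mice ran for different lengths of time, and the sedentary and fatigued libraries were sequenced as separate projects, so that exercise and project cannot be told apart. Exhaustion ended each run, so its length was not held equal between light and control, and no value with fatigued PBM mice separates light from length of run.

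The counts assigned to genes ran from 43271093 to 46904076 a library in sedentary controls, from 46327516 to 52775844 in sedentary PBM mice, from 56792327 to 68726155 in fatigued controls and from 53122528 to 68566029 in fatigued PBM mice. Levels are given as CPM, a gene's share of all counts in its library, scaled by the trimmed mean of M values over all 24 libraries, as the lowest, median and highest of the 6 mice and the mean ± SD. Comparisons between genes use CPM per kilobase (kb) of transcript. Differences are log2 fold changes ± standard error (SE) from edgeR quasi-likelihood fits over all genes that passed the filter, with Benjamini-Hochberg adjusted p-values, n = 6 mice a group. A gene is said to have risen or fallen where that adjusted p was under 0.05.

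The tissue carried the markers of fast muscle: the 10 fast fibre genes summed to 121166, 131956 and 181900.0 CPM in sedentary controls, with *Myh4*, the fastest myosin heavy chain, as the most abundant. The 9 slow fibre markers summed to 122, 155 and 169.9 CPM and the 10 adipocyte markers to 197, 244 and 293 CPM, most of it *Fabp4*. Of the keratinocyte markers, 4 of 5 had means under 1 CPM in every group. Fewer cells of a type and less RNA per cell cannot be told apart in these bulk samples.

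A few mice stood apart. Over all genes tested, sedentary control 4 and fatigued PBM 5 lay farthest from their groups, at root mean square distances of 0.501 and 0.509 on the log2 scale, against at most 0.407 for any other mouse. Sedentary control 4 was the highest of its group in 20 of the 40 genes, and sedentary PBM 6, at a distance of 0.368, the lowest of its group in 30 of 40. Some counts are also given without these 3 mice. Sedentary PBM 6 was picked on the 40 genes themselves, so that fit does not test how they lean after light.

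The fatty acid genes were strongly expressed in resting muscle. In sedentary controls 26 of the 40 stood above the 90th percentile of all genes tested on CPM per kb, 10 lay between the 50th and the 90th, and 4 below the 50th, namely *Cpt1a*, *Cpt1b*, *Angptl4* and *Ppara*. The count of *Cpt1b* is uncertain, as described below. *Fabp3*, the heart and muscle fatty acid binding protein, was the most abundant at 268 CPM per kb, ahead of *Pdk2*, a pyruvate dehydrogenase kinase, at 238, and *Acadvl*, the very long chain acyl-CoA dehydrogenase, at 233. *Acadl* and *Acadm*, the long and medium chain dehydrogenases, *Etfa*, which takes their electrons, and *Hadhb* followed at 171, 169, 169 and 159 CPM per kb.

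The spread between mice was modest for most of the 40. The median coefficient of variation was 13.0% in sedentary controls, 10.8% in sedentary PBM mice, 8.39% in fatigued controls and 11.2% in fatigued PBM mice. The steadiest gene was *Hadhb* in fatigued controls, at 3.06%, and the most variable was *Etfb* in sedentary controls, at 62.0%, where 1 mouse had 23.9 CPM and the others at most 10.6 CPM. Summed over all 40 genes, the level was 6269.6, 6947 and 7368 CPM (mean 6851 ± 473) in sedentary controls and 5222, 6282 and 6718 CPM (mean 6196 ± 539) in sedentary PBM mice. Fatigued controls summed to 6072, 6523 and 7039 CPM (mean 6569 ± 384) and fatigued PBM mice to 6138, 6796 and 7522 CPM (mean 6729.8 ± 485). All 4 groups overlapped in this sum.

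A few counts are uncertain because of the annotation. *Cpt1b*, the muscle form of the enzyme that hands fatty acids to carnitine, shares 81.4% of its exon bases with *Gm44502*, a read-through gene on the same strand with a count of 0 in every mouse, and stood last of the 40 at 0.355 CPM per kb. *Etfb*, the partner subunit of *Etfa*, shares 53.0% of its exon bases with *Gm45233* on the same strand, which likewise had a count of 0 throughout. *Acadvl* shares 42.9% with *Dvl2* on the opposite strand, which had a mean count of 208 against 24453 for *Acadvl*. *Acsl6* shares 2.04% with *Gm12224* on the opposite strand, whose mean count of 2426 exceeded the 1395 of *Acsl6*. *Fabp3* shares 9.84% with *Zcchc17* on the opposite strand, at a mean count of 1951 against 12046 for *Fabp3*. Reads that fit both genes of such a pair may have been dropped, which was not tested.

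PBM in resting muscle asks whether these genes differed from controls a day after light, without exercise. No gene of the 40 passed the test, and *Ucp3*, the uncoupling protein of the inner mitochondrial membrane in muscle, had the largest difference: 92.7 ± 34.5 CPM in PBM mice against 166 ± 26.2 CPM in controls (mean ± SD, n = 6), a log2 fold change of -0.83 ± 0.21. Most of the 40 lay slightly lower after light: 34 of 40 had a log2 fold change below 0, against 50.4% of all genes tested, and the median over the 40 was -0.11 against -0.00 over all genes. The only genes above 0 were *Angptl4*, *Plin2*, *Ppard*, *Ppara*, *Acsl6* and *Acsl1*. Many of the 40 moved together within a mouse: sedentary control 4 was highest in 20 and sedentary PBM 6 lowest in 30. Counts of the 40 below 0, here and in the comparisons that follow, are therefore not counts of separate observations. Without sedentary PBM 6, picked on the 40 genes themselves, the median over the 40 was -0.07. Without the 3 mice named above it was -0.05, with 28 of 40 below 0.

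By edgeR, 0 of 40 were called higher (0.0212% of all genes) and 0 of 40 lower (0.00705%). At unadjusted p under 0.05 the counts were 0 higher (3.33%) and 7 lower (4.3%): *Ucp3*, *Mlycd*, *Eci1*, *Cpt1a*, *Acot2*, *Acaa2* and *Acadm*. DESeq2 called 0 higher and 1 lower, *Ucp3*, and limma voom called 0 either way. The 6 PBM mice lay wholly below the 6 controls in 0 of 40 genes (0.275%) and wholly above in 0 of 40 (0.205%). With limma voom the median over the 40 was -0.05 against -0.00 over all genes, and 29 of 40 lay below 0. With the length trend removed, a correction for the tendency of a library to favour long or short transcripts, the median was also -0.05, with 28 of 40 below 0, and that over all genes was 0.04. Over all genes edgeR called 4, and this count ran from 2 without sedentary control 1, 2 or 6 to 20 without sedentary PBM 5, with 18 without sedentary control 4, 10 without sedentary PBM 2 and 7 without sedentary PBM 4.

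PBM before exhaustion asks the same of exercised muscle. Again no gene of the 40 passed the test, and the values leaned the other way: 10 of 40 lay below 0, against 48% of all genes, with a median of 0.05 against 0.00. *Fabp3* had the smallest p, at 254 ± 45.9 CPM in PBM mice against 202 ± 20.6 CPM in controls (mean ± SD, n = 6), a log2 fold change of 0.33 ± 0.11. *Plin5*, which coats lipid droplets next to mitochondria, and *Lpl*, lipoprotein lipase, came next at 0.35 ± 0.15 and 0.21 ± 0.11.

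By edgeR, 0 of 40 were called higher (0%) and 0 of 40 lower (0%), as for every gene of the genome tested. At unadjusted p under 0.05 there were 2 higher (1.08%), *Fabp3* and *Plin5*, and 0 lower (0.501%). DESeq2 and limma voom each called 0 of the 40 either way. Groups lay wholly apart in 0 of 40 upward (0.00686%) and 0 of 40 downward (0.0206%). The median was 0.03 with 13 of 40 below 0 with the length trend removed and 0.02 with 15 below 0 when a replicate block was added, against -0.02 over all genes in both, and it was 0.03 without fatigued control 6.

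The difference between both PBM effects, fatigued minus sedentary, uses all 24 mice and shares its mice with each PBM comparison. No gene of the 40 passed: edgeR called 0 higher (0.00662%) and 0 lower (0%), DESeq2 and limma voom 0 each. At unadjusted p under 0.05 there were 8 higher (2.95%) and 0 lower (1.45%). The 8 were *Acadm*, *Lpl*, *Fabp3*, *Acaa2*, *Plin5*, *Hadhb*, *Decr1* and *Mlycd*, and 3 of 40 lay below 0 against 46.3% of all genes. The median was 0.17 against 0.02 over all genes, 0.10 against 0.00 with limma voom and 0.07 against -0.07 with the length trend removed. With limma voom 8 of 40 lay below 0, and with the length trend removed 11 of 40. Over all genes the test called 1, and 3 without sedentary PBM 2.

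**Figure D1:**
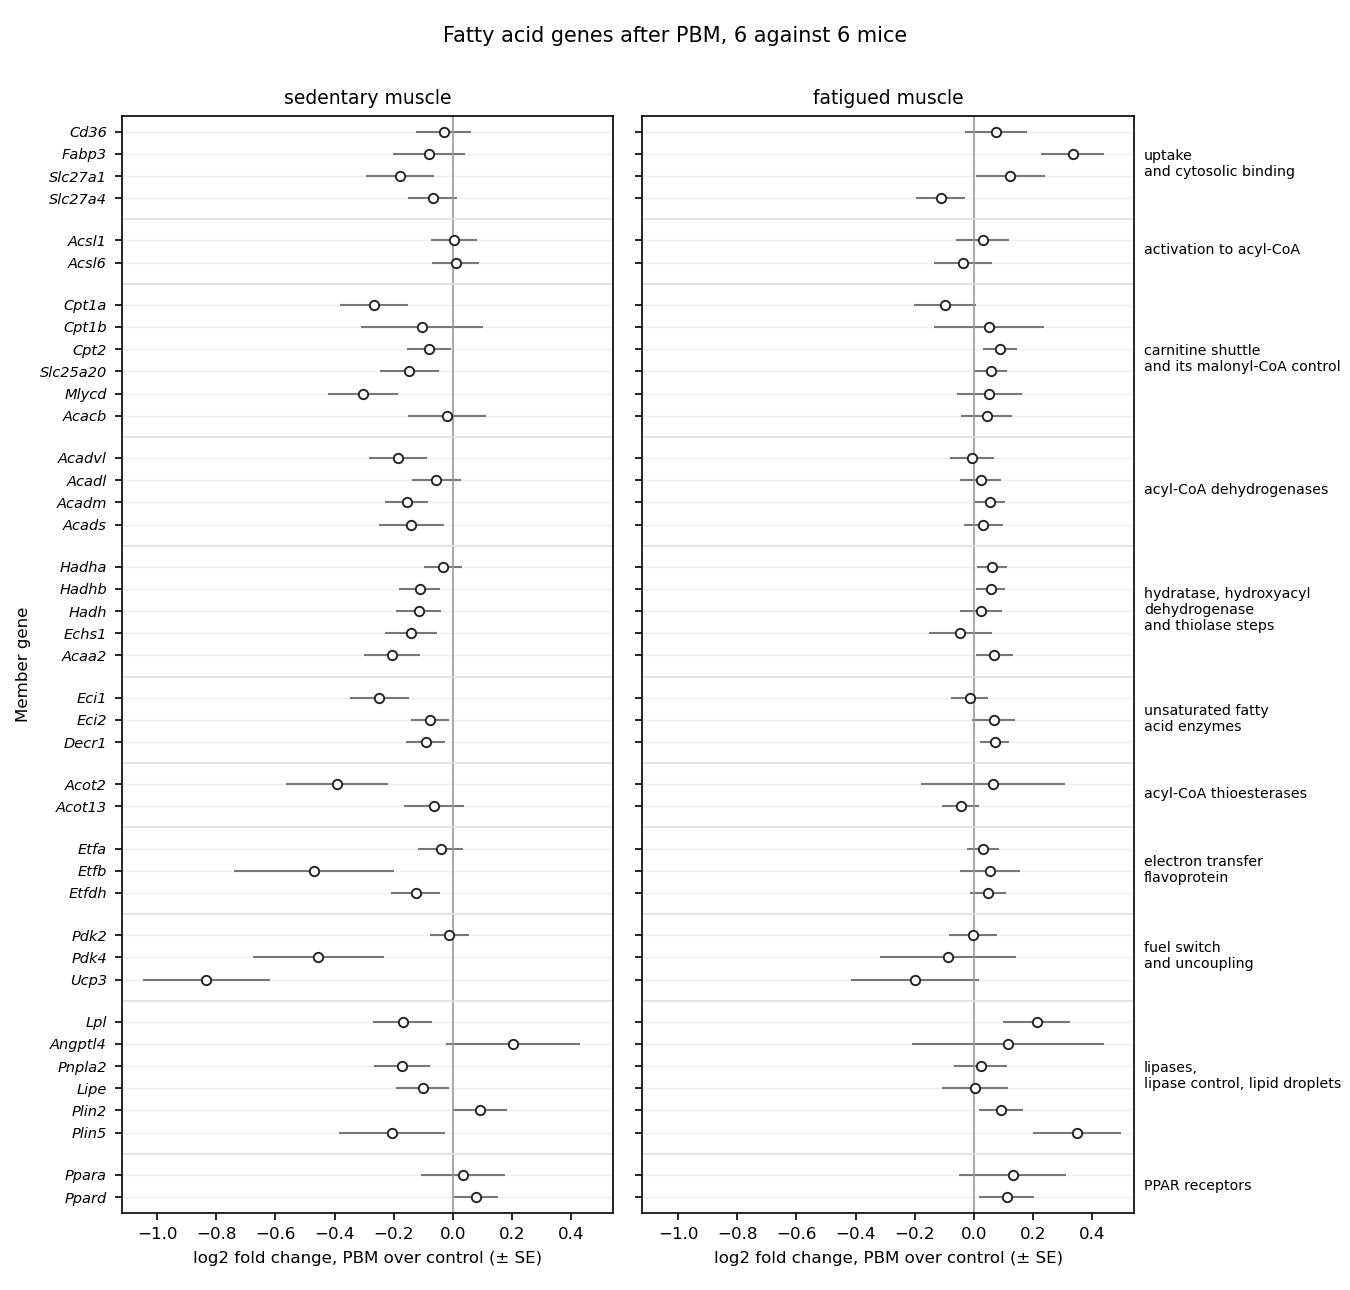
Log2 fold changes (± SE) of the 40 genes for PBM over control, 6 against 6 mice, in sedentary muscle on the left and fatigued muscle on the right, grouped by role, where open circles mark genes with an edgeR adjusted p of 0.05 or more. Every circle is open, and 34 of 40 lie below 0 in sedentary muscle against 10 of 40 in fatigued muscle.

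Exhausted against resting muscle was the comparison in which these genes moved. In control mice 6 genes rose, among them both nuclear receptors and 3 of the 6 genes of lipases, lipase control and lipid droplets: *Angptl4*, a secreted inhibitor of lipoprotein lipase, from 1.94 ± 0.633 to 6.06 ± 1.69 CPM and *Ppara* from 7.04 ± 1.48 to 13.5 ± 3.50 CPM (mean ± SD, n = 6), with *Cpt1a*, the liver-type enzyme that hands fatty acids to carnitine, *Plin2*, a lipid droplet coat protein, *Ppard* and *Lipe*, hormone-sensitive lipase. Among the 12 genes that fell were *Acadm*, *Hadhb*, *Eci1*, *Etfdh* and *Decr1*. *Slc27a1*, a fatty acid transporter, and *Acsl6*, which ties fatty acids to coenzyme A, fell as well. With the length trend removed *Eci1*, *Etfdh*, *Decr1* and *Slc27a1* lost their calls. The sedentary controls of this comparison are also those of PBM in resting muscle, so both sets of values rest on the same 6 mice.

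EdgeR called 6 of the 40 higher (9.1% of all genes) and 12 of 40 lower (9.49%), with a median of -0.15 against -0.01 over all genes (-0.09 against 0.04 with the length trend removed). The fatigued mice lay wholly above the sedentary mice in 4 genes (4.08%), *Ppara*, *Angptl4*, *Cpt1a* and *Plin2*, and wholly below in 4 (3.63%), *Acadm*, *Hadhb*, *Etfdh* and *Decr1*. With the length trend removed the higher count was unchanged at 6 and the lower count was 3, *Acadm*, *Hadhb* and *Acsl6*; over all genes the calls then split into 1310 higher and 592 lower, against 1375 and 1434 without that step. Leaving out fatigued control 6 gave 6 lower and leaving out sedentary control 3 gave 7 lower, the other single-mouse fits between 8 and 13. Without the 3 mice named above there were 7 higher and 11 lower.

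In PBM mice the same change of state gave 9 of 40 higher (14.1%) and 3 of 40 lower (12.7%), with a median of 0.04 against 0.00 (-0.00 against -0.03 with the length trend removed, -0.01 against -0.04 with the replicate block added to that, and -0.00 without sedentary PBM 6). Its mice are also the PBM mice of both comparisons with light. *Angptl4*, *Ppara*, *Cpt1a*, *Plin2*, *Ppard* and *Lipe* rose here too, with *Ucp3*, *Pdk4*, the pyruvate dehydrogenase kinase that responds to fasting and exercise, and *Lpl* beside them. *Acsl6*, *Acot13*, an acyl-CoA thioesterase, and *Hadhb* fell. The fatigued mice lay wholly above the sedentary mice in 3 genes (5.98%), *Ppara*, *Cpt1a* and *Ppard*, and wholly below in 0 (5.2%). The lower count was 1 with the length trend removed (where *Hadhb* lost its call with a larger value, -0.23, adjusted p = 0.0696), 5 with limma voom, 6 without sedentary PBM 6 and 1 in each of 6 other single-mouse fits, those without fatigued PBM 4 or 6 or sedentary PBM 1, 2, 3 or 4. The gap between these counts and those in control mice is not itself a test. The gap between the log2 fold changes is the difference of the PBM effects, for which 0 of 40 passed in edgeR and 8 had an unadjusted p under 0.05.

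**Figure D2:**
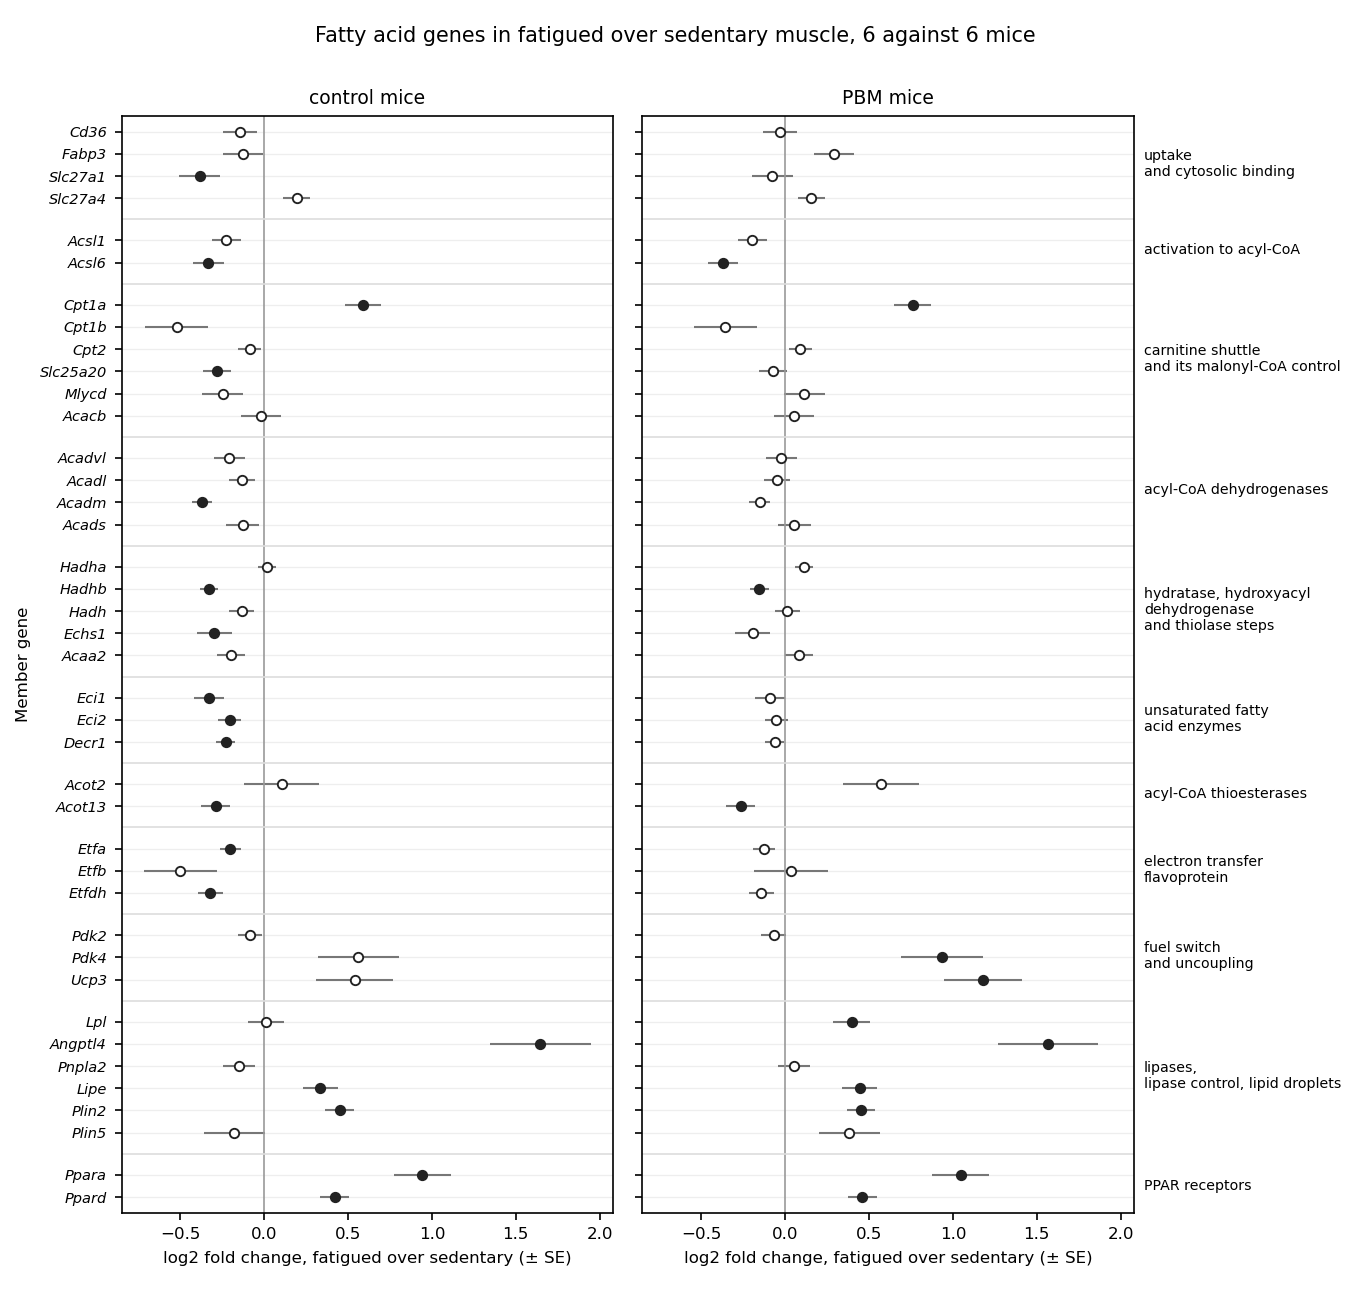
Log2 fold changes (± SE) of the 40 genes for fatigued over sedentary muscle, 6 against 6 mice, in control mice on the left and PBM mice on the right, grouped by role, where filled circles mark genes with an edgeR adjusted p under 0.05. In control mice 6 filled circles lie above 0 and 12 below, and in PBM mice 9 and 3.

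Uptake begins with *Cd36*, the fatty acid translocase, *Fabp3*, and the transporters *Slc27a1* and *Slc27a4*. *Fabp3* was at 187, 211 and 282 CPM (mean 221 ± 33.1) in sedentary controls and 156, 201 and 273 CPM (mean 208 ± 40.4) in sedentary PBM mice. After exhaustion it was at 176, 205 and 233 CPM (mean 202 ± 20.6) in controls and 218, 234 and 340.2 CPM (mean 254 ± 45.9) in PBM mice. The sedentary groups overlapped, and in fatigued muscle 3 of 6 PBM mice were above every control. With PBM its log2 fold change was -0.08 ± 0.12 in sedentary muscle (edgeR adjusted p = 0.861) and 0.33 ± 0.11 in fatigued muscle (unadjusted p = 0.00711, adjusted p = 0.9998; exact permutation p = 0.00866). The difference of both effects was 0.42 ± 0.17 (adjusted p = 0.946). From sedentary to fatigued, *Fabp3* gave -0.13 ± 0.12 in controls (adjusted p = 0.496) and 0.29 ± 0.12 in PBM mice (adjusted p = 0.0755, 0.00731 to 0.428 over the alternatives), a value past the threshold with the length trend removed (0.37, adjusted p = 0.00731) and in 2 of 24 single-mouse omissions, most strongly without sedentary PBM 2 (adjusted p = 0.0175).

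*Slc27a1* was at 68.1, 80.8 and 118 CPM (mean 83.5 ± 18.4) in sedentary controls and 48.2, 65.7 and 77.0 CPM (mean 63.9 ± 9.61) in fatigued controls. Sedentary PBM mice had 63.5, 72.9 and 81.8 CPM (mean 73.3 ± 8.11) and fatigued PBM mice 57.7, 68.8 and 83.6 CPM (mean 69.5 ± 10.9). The highest value of all, in sedentary control 4, stood clear of the rest, 5 of 6 fatigued controls were below every sedentary control, and the PBM groups overlapped. It fell in fatigued controls, by a log2 fold change of -0.39 ± 0.12 (edgeR adjusted p = 0.0312, 0.0204 to 0.0813 over the alternatives). That call was lost in 6 of 24 single-mouse omissions, most strongly without sedentary control 4 (adjusted p = 0.0825), with the length trend removed (-0.36, adjusted p = 0.0690), with limma voom (-0.24, adjusted p = 0.0813), without the 3 mice named above (-0.26, adjusted p = 0.0808) and with no filter (-0.37, adjusted p = 0.0704). In PBM mice the change of state gave -0.08 ± 0.12 (adjusted p = 0.687), and PBM gave -0.18 and 0.12 in sedentary and fatigued muscle. *Cd36* and *Slc27a4* gave -0.14 ± 0.10 and 0.19 ± 0.08 from sedentary to fatigued controls (adjusted p = 0.347 and 0.0980, 0.0273 to 0.480 and 0.0259 to 0.218 over the alternatives), with limma voom each passed (-0.23, adjusted p = 0.0273 and 0.22, adjusted p = 0.0260), and *Slc27a4* also in 2 of 24 single-mouse omissions, most strongly without sedentary control 4 (adjusted p = 0.0295).

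Activation to acyl-CoA is carried by *Acsl1*, the main long-chain synthetase of muscle, and *Acsl6*. *Acsl1* was at 277, 289.8 and 319 CPM (mean 296 ± 17.8) in sedentary controls and 237, 306 and 330.1 CPM (mean 296 ± 31.8) in sedentary PBM mice. Its levels after exhaustion were 232, 238 and 329 CPM (mean 253 ± 37.6) in controls and 220.1, 258 and 281 CPM (mean 258 ± 22.5) in PBM mice. A lone high fatigued control, number 5, was above every sedentary control, and the other 5 were below all of them. The change of state gave -0.23 ± 0.09 in controls (edgeR adjusted p = 0.0644, 0.00893 to 0.149 over the alternatives) and -0.20 ± 0.09 in PBM mice (adjusted p = 0.0903). The first passed with limma voom (-0.25, adjusted p = 0.00893). Leaving out fatigued control 5 brought the first to an adjusted p of 0.00491 and leaving out sedentary PBM 6 the second to 0.0266. With PBM the log2 fold change was 0.00 in sedentary and 0.03 in fatigued muscle. *Acsl6* fell in both states of light, by -0.33 ± 0.09 in controls (adjusted p = 0.0113) and -0.37 ± 0.09 in PBM mice (adjusted p = 0.00331).

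The carnitine shuttle moves the chain inward through *Cpt1a* or *Cpt1b*, the carrier *Slc25a20* and *Cpt2*, while *Acacb* makes and *Mlycd* removes the malonyl-CoA that restrains it. *Cpt1a* was at 6.26, 7.59 and 9.20 CPM (mean 7.63 ± 1.04) in sedentary controls and 10.5, 11.1 and 12.8 CPM (mean 11.5 ± 0.956) in fatigued controls. PBM mice had 5.43, 6.28 and 7.29 CPM (mean 6.32 ± 0.820) at rest and 7.91, 11.0 and 13.0 CPM (mean 10.7 ± 1.74) after exhaustion. Every fatigued mouse was above every sedentary mouse of the same treatment. *Cpt1a* rose by a log2 fold change of 0.59 ± 0.11 in controls (edgeR adjusted p = 0.000482) and 0.76 ± 0.11 in PBM mice (adjusted p = 1.48e-05). With PBM it gave -0.27 ± 0.11 in sedentary muscle (unadjusted p = 0.0321, adjusted p = 0.638) and -0.10 ± 0.10 in fatigued muscle (adjusted p = 0.9998).

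*Slc25a20*, the most abundant of the shuttle per kb, was at 76.4, 84.9 and 112 CPM (mean 88.2 ± 13.5) in sedentary controls and 67.0, 73.4 and 77.2 CPM (mean 72.6 ± 3.91) in fatigued controls. PBM mice had 64.5, 78.9 and 90.6 CPM (mean 79.3 ± 8.89) and 70.5, 75.1 and 82.0 CPM (mean 75.5 ± 4.41) in the same order. Among controls 5 of 6 fatigued mice were below every sedentary mouse, and the PBM groups overlapped. It fell by -0.28 ± 0.08 there (edgeR adjusted p = 0.0192, 0.00276 to 0.195 over the alternatives), a call lost in 2 of 24 single-mouse omissions, most strongly without sedentary control 3 (adjusted p = 0.0943), and with the length trend removed (-0.22, adjusted p = 0.142). In PBM mice the value was -0.07 ± 0.08 (adjusted p = 0.559), with a difference between the treatments of 0.21 ± 0.12 (adjusted p = 0.946).

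*Mlycd*, malonyl-CoA decarboxylase, was at 64.7, 80.2 and 122 CPM (mean 84.3 ± 20.1) in sedentary controls and 60.7, 67.5 and 78.4 CPM (mean 67.8 ± 6.54) in sedentary PBM mice. Fatigued controls had 59.5, 69.3 and 87.8 CPM (mean 70.9 ± 9.53) and fatigued PBM mice 58.7, 76.0 and 86.0 CPM (mean 73.4 ± 11.6). The groups overlapped in each comparison. Its log2 fold change with PBM was -0.30 ± 0.12 in sedentary muscle (unadjusted p = 0.0207, edgeR adjusted p = 0.601) and 0.05 ± 0.11 in fatigued muscle (adjusted p = 0.9998). *Acacb*, the acetyl-CoA carboxylase of muscle, and *Cpt2*, which returns the chain to coenzyme A, stayed between -0.09 and 0.09 from sedentary to fatigued and passed in no comparison. The value of *Cpt1b* from sedentary to fatigued controls was -0.52 ± 0.19 (edgeR adjusted p = 0.0534, 0.0397 to 0.168 over the alternatives), from means of 1.03 ± 0.332 and 0.714 ± 0.113 CPM, and it passed with DESeq2 (-0.51, adjusted p = 0.0452), with the stricter filter (-0.52, adjusted p = 0.0397) and in 3 of 24 single-mouse omissions, most strongly without sedentary control 3 (adjusted p = 0.0295). The *Cpt1b* count is uncertain, since 81.4% of its exon bases are shared with *Gm44502*.

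The acyl-CoA dehydrogenases take the first step of each turn, from very long (*Acadvl*) through long (*Acadl*) and medium (*Acadm*) to short chains (*Acads*). *Acadm* was at 319.9, 332 and 396 CPM (mean 345 ± 30.8) in sedentary controls and 263, 315 and 324 CPM (mean 308 ± 22.5) in sedentary PBM mice. Exhausted mice had 252, 268 and 278 CPM (mean 267 ± 9.91) in controls and 258, 278 and 293 CPM (mean 277 ± 12.6) in PBM mice. All 6 fatigued controls were below all 6 sedentary controls, 5 of 6 sedentary PBM mice lay below every sedentary control (all but number 4), and 5 of 6 above every fatigued PBM mouse (all but number 6). *Acadm* fell in fatigued controls by -0.37 ± 0.06 (edgeR adjusted p = 0.000151; -0.33 and adjusted p = 0.0205 with the length trend removed, 1.38e-07 to 0.0297 over the alternatives). In PBM mice the value was -0.15 ± 0.06 (adjusted p = 0.0664, 0.00707 to 0.174 over the alternatives), past the threshold with limma voom (-0.16, adjusted p = 0.0129) and in 2 of 24 single-mouse omissions, most strongly without sedentary PBM 6 (adjusted p = 0.0185). The difference between treatments was 0.22 ± 0.09 (unadjusted p = 0.0191, adjusted p = 0.946). With PBM, *Acadm* gave -0.16 ± 0.07 at rest (adjusted p = 0.648) and 0.05 ± 0.05 after exhaustion (adjusted p = 0.9998).

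*Acadvl* was at 449, 465 and 645 CPM (mean 505 ± 78.4) and 348, 456 and 478 CPM (mean 442 ± 47.9) in sedentary controls and PBM mice. The fatigued groups had 412, 431 and 481 CPM (mean 437 ± 26.0) and 367, 453 and 482 CPM (mean 435 ± 47.3). Sedentary PBM 6 was the lowest mouse of all, and every pair of groups overlapped. Its log2 fold changes were -0.18 ± 0.10 and -0.01 ± 0.07 with PBM at rest and after exhaustion (edgeR adjusted p = 0.665 and 0.9998). From sedentary to fatigued they were -0.21 ± 0.09 in controls (adjusted p = 0.113) and -0.02 ± 0.09 in PBM mice (adjusted p = 0.876). *Acadl* and *Acads* each gave -0.13 in fatigued controls and passed no test.

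The next steps are run by the trifunctional protein, whose subunits are *Hadha* (hydratase and long-chain hydroxyacyl dehydrogenase) and *Hadhb* (thiolase), and by *Echs1*, *Hadh* and *Acaa2* for shorter chains. *Hadhb* was at 305, 318 and 374 CPM (mean 326 ± 26.6) in sedentary controls and 269, 305 and 318 CPM (mean 301 ± 16.7) in sedentary PBM mice. Fatigued mice had 245, 261 and 267 CPM (mean 259.5 ± 7.94) and 255, 268 and 287 CPM (mean 269.9 ± 12.1). All 6 fatigued controls were below all 6 sedentary controls, while PBM mice overlapped through sedentary PBM 6. It fell by -0.33 ± 0.06 in controls (edgeR adjusted p = 0.000215; -0.29 and adjusted p = 0.0325 with the length trend removed, 1.84e-07 to 0.0512 over the alternatives). With the length trend removed and the replicate block added, *Hadhb* lost its call in controls (-0.29, adjusted p = 0.0512). In PBM mice it fell by -0.16 ± 0.06 (adjusted p = 0.0428; -0.23 and adjusted p = 0.0696 with the length trend removed, 0.0112 to 0.152 over the alternatives), a call lost in 12 of 24 single-mouse omissions, most strongly without sedentary PBM 4 (adjusted p = 0.124), with no filter (-0.15, adjusted p = 0.152), with DESeq2 size factors (-0.15, adjusted p = 0.0554) and with the replicate block (-0.15, adjusted p = 0.0510). With PBM the values were -0.11 ± 0.07 at rest (adjusted p = 0.683) and 0.06 ± 0.05 after exhaustion (adjusted p = 0.9998).

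*Hadha* passed in neither treatment. It was at 328, 345 and 395 CPM (mean 351 ± 23.9) in sedentary controls and 333, 356 and 376 CPM (mean 355 ± 16.2) in fatigued controls, and its log2 fold change was 0.02 ± 0.05 (edgeR adjusted p = 0.878). PBM mice had 309, 346 and 364 CPM (mean 341 ± 18.7) at rest and 352, 371 and 382 CPM (mean 369 ± 11.7) after exhaustion, with 0.11 ± 0.05 (adjusted p = 0.128). This pair was chosen after the values were seen. The log2 of *Hadhb* over *Hadha* was -0.20, -0.12 and 0.01 (lowest, median and highest) in sedentary controls and -0.28, -0.18 and -0.13 in sedentary PBM mice. Fatigued controls had -0.49, -0.46 and -0.36 and fatigued PBM mice -0.52, -0.44 and -0.38. Every fatigued mouse was below every sedentary mouse. The difference in the mean ratio was -0.34 in controls and -0.27 in PBM mice, and with PBM -0.08 at rest and -0.00 after exhaustion, given as a description without a test. The transcripts differ in length, 4017 bases for *Hadha* and 2048 for *Hadhb*, and the part of length and of the sequencing project in this ratio was not tested.

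**Figure D3:**
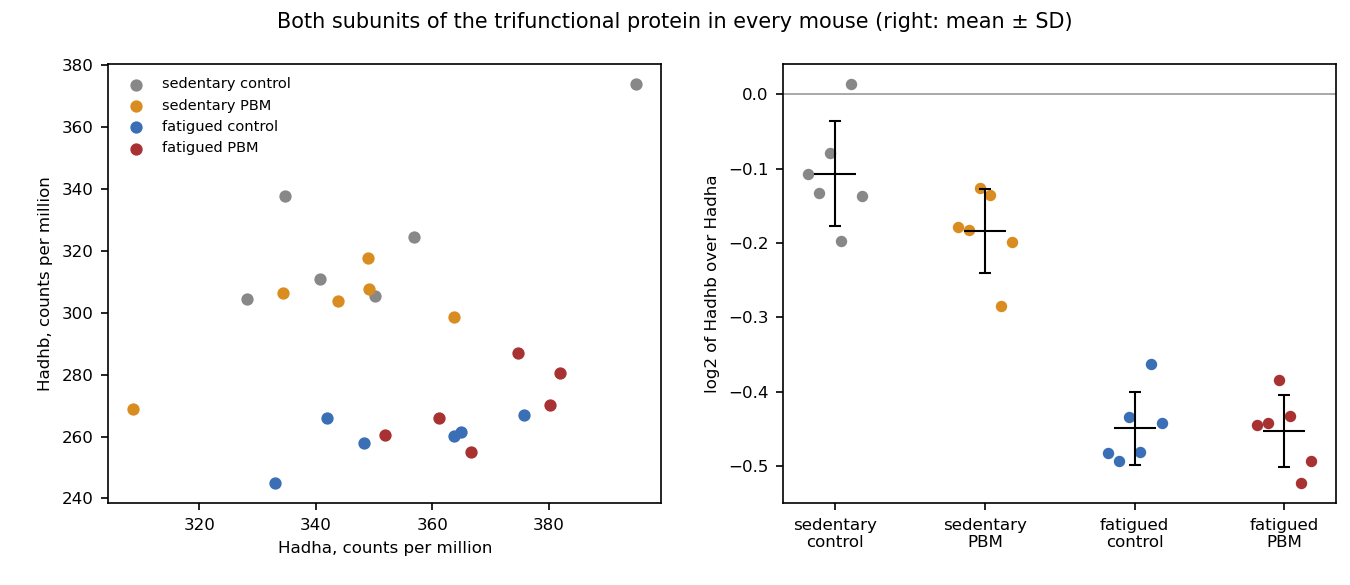
Levels of *Hadhb* against *Hadha* in CPM for each of 24 mice on the left, and the log2 of their ratio in each mouse with the mean ± SD of 6 mice a group on the right. The 12 fatigued mice lie between -0.52 and -0.36 on the log2 scale and the 12 sedentary mice between -0.28 and 0.01.

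*Echs1*, short-chain enoyl-CoA hydratase, fell in fatigued controls by -0.30 ± 0.10, from 143 ± 24.2 to 116 ± 15.7 CPM, the weakest call of the 40 (edgeR adjusted p = 0.0456, 0.0394 to 0.296 over the alternatives). It was lost in 17 of 24 single-mouse omissions, most strongly without fatigued control 3 (adjusted p = 0.125), with limma voom (-0.17, adjusted p = 0.0748), without the 3 mice named above (-0.20, adjusted p = 0.0874), with the length trend removed (-0.21, adjusted p = 0.280), with no filter (-0.28, adjusted p = 0.0786), with DESeq2 size factors (-0.29, adjusted p = 0.0519) and with the replicate block (-0.30, adjusted p = 0.0546). In PBM mice it gave -0.19 ± 0.10 (adjusted p = 0.172, 0.0250 to 0.241 over the alternatives) and passed with limma voom (-0.23, adjusted p = 0.0250) and in 1 of 24 single-mouse omissions, that of fatigued PBM 1 (adjusted p = 0.0386). *Hadh*, the short-chain hydroxyacyl dehydrogenase, and *Acaa2*, a thiolase, gave -0.13 and -0.20 in fatigued controls and did not pass.

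Unsaturated chains need *Eci1* and *Eci2*, the enoyl-CoA isomerases, and *Decr1*, dienoyl-CoA reductase, and all 3 fell in fatigued controls, where 9.49% of all genes did, and none of the 3 with the length trend removed. *Eci1* was at 100.1, 108 and 146 CPM (mean 116 ± 18.2) in sedentary controls and 85.6, 90.8 and 102 CPM (mean 92.3 ± 6.48) in fatigued controls. PBM mice had 79.9, 99.7 and 112 CPM (mean 97.2 ± 12.4) at rest and 82.9, 92.2 and 98.3 CPM (mean 91.4 ± 6.43) after exhaustion. Sedentary controls 3 and 4 were the highest, and a single fatigued control reached into the sedentary range. The fall of *Eci1* was -0.33 ± 0.09 (edgeR adjusted p = 0.0116, 0.00595 to 0.337 over the alternatives), and with the length trend removed the value was -0.15 (adjusted p = 0.333). *Decr1* fell by -0.23 ± 0.06 with no overlap between the groups (adjusted p = 0.00470; -0.20 and adjusted p = 0.119 with the length trend removed, 0.000343 to 0.147 over the alternatives). *Eci2* fell by -0.21 ± 0.07 (adjusted p = 0.0361, 0.0194 to 0.379 over the alternatives), a call lost in 12 of 24 single-mouse omissions, most strongly without sedentary control 3 (adjusted p = 0.128), with the length trend removed (-0.14, adjusted p = 0.327), with no filter (-0.19, adjusted p = 0.126) and with the replicate block (-0.21, adjusted p = 0.0530).

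In PBM mice the values of *Eci1*, *Eci2* and *Decr1* from sedentary to fatigued were -0.09, -0.05 and -0.06, and none passed. The difference between treatments was 0.24 ± 0.13 for *Eci1* (edgeR adjusted p = 0.946) and 0.17 ± 0.08 for *Decr1* (adjusted p = 0.946). With PBM at rest, *Eci1* gave -0.25 ± 0.10 (unadjusted p = 0.0255, adjusted p = 0.612), and after exhaustion -0.01 ± 0.06 (adjusted p = 0.9998).

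The thioesterases *Acot2*, in mitochondria, and *Acot13* release free acids from acyl-CoA. *Acot13* was at 56.8, 72.8 and 83.4 CPM (mean 72.1 ± 8.90) in sedentary controls and 54.9, 60.0 and 62.5 CPM (mean 59.1 ± 3.07) in fatigued controls. PBM mice had 53.2, 70.5 and 81.0 CPM (mean 68.8 ± 9.15) and 51.3, 56.6 and 64.3 CPM (mean 57.2 ± 4.87). In each treatment 5 of 6 sedentary mice were above every fatigued mouse. It fell by -0.29 ± 0.09 in controls (edgeR adjusted p = 0.0200, 0.000332 to 0.994 over the alternatives) and -0.27 ± 0.09 in PBM mice (adjusted p = 0.0232, 0.00140 to 0.361 over the alternatives). *Acot13* has the shortest transcript of the 40, at 721 bases, and with the length trend removed its values were 0.00 (adjusted p = 0.994) and -0.14 (adjusted p = 0.338). The call in controls was lost in 3 of 24 single-mouse omissions, most strongly without sedentary control 3 (adjusted p = 0.0865), and that in PBM mice in 6 of 24 single-mouse omissions, most strongly without fatigued PBM 4 (adjusted p = 0.0737). With PBM it gave -0.06 and -0.04 at rest and after exhaustion. *Acot2* has a near-identical neighbour, *Acot1*, which makes its count uncertain, and gave 0.57 ± 0.23 from sedentary to fatigued PBM mice (adjusted p = 0.0630, 0.0339 to 0.167 over the alternatives), passing with DESeq2 (0.58, adjusted p = 0.0396) and in 3 of 24 single-mouse omissions, most strongly without fatigued PBM 2 (adjusted p = 0.0273).

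Electrons from the dehydrogenases pass through the flavoprotein of *Etfa* and *Etfb* to *Etfdh*, its ubiquinone oxidoreductase. *Etfa* was at 193, 238 and 262 CPM (mean 236 ± 24.4) in sedentary controls and 192, 209 and 212 CPM (mean 205 ± 9.57) in fatigued controls. PBM mice had 209, 231 and 241 CPM (mean 228 ± 11.1) at rest and 189, 211 and 222 CPM (mean 209 ± 12.0) after exhaustion. In each treatment 5 of 6 sedentary mice were above every fatigued mouse, and sedentary control 3 was the highest of all. *Etfa* fell in controls by -0.20 ± 0.06 (edgeR adjusted p = 0.0270, 0.000389 to 0.661 over the alternatives), a call lost in 8 of 24 single-mouse omissions, most strongly without sedentary control 3 (adjusted p = 0.119), with the length trend removed (-0.09, adjusted p = 0.618) and with no filter (-0.18, adjusted p = 0.112). In PBM mice it gave -0.13 ± 0.06 (adjusted p = 0.148), and PBM gave -0.04 and 0.03 at rest and after exhaustion. *Etfdh* fell in controls by -0.32 ± 0.07 without overlap, from 186 ± 13.4 to 148 ± 9.67 CPM (adjusted p = 0.00315; -0.28 and adjusted p = 0.0765 with the length trend removed, 0.000102 to 0.0951 over the alternatives). In PBM mice *Etfdh* gave -0.14 ± 0.07 (adjusted p = 0.153, 0.0260 to 0.278 over the alternatives) and passed in 1 of 24 single-mouse omissions, that of sedentary PBM 6 (adjusted p = 0.0251). *Etfb* gave -0.50 ± 0.22 and 0.03 ± 0.22 and did not pass.

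*Ucp3* showed the widest swings among the genes of fuel switching. It was at 137, 157 and 201 CPM (mean 166 ± 26.2) in sedentary controls and 50.7, 93.6 and 143 CPM (mean 92.7 ± 34.5) in sedentary PBM mice. After exhaustion the levels were 187, 242 and 336 CPM (mean 241 ± 54.4) in controls and 129.7, 185 and 336 CPM (mean 210.0 ± 74.3) in PBM mice. At rest 5 of 6 PBM mice were below every control, and the sixth reached into the control range. The log2 fold change with PBM was -0.83 ± 0.21 at rest (edgeR unadjusted p = 0.00162, adjusted p = 0.337, 0.0114 to 0.641 over the alternatives; exact permutation p = 0.00433). It passed with DESeq2 only (adjusted p = 0.0138, and 0.0114 on the filtered genes). After exhaustion PBM gave -0.20 ± 0.22 (adjusted p = 0.9998), and the difference of both effects was 0.64 ± 0.32 (unadjusted p = 0.0604, adjusted p = 0.946). *Ucp3* rose from sedentary to fatigued in PBM mice by 1.18 ± 0.23 (adjusted p = 0.000680), and gave 0.54 ± 0.23 in controls (adjusted p = 0.105), a gap that is the same difference.

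*Pdk4* and *Pdk2* both restrain pyruvate dehydrogenase. *Pdk2* was at 496, 531 and 588 CPM (mean 536 ± 30.8) in sedentary controls and 496, 524 and 585 CPM (mean 529 ± 33.5) in sedentary PBM mice. Fatigued controls had 443, 492 and 578 CPM (mean 505 ± 52.4) and fatigued PBM mice 447, 494 and 581 CPM (mean 504 ± 49.2). All groups overlapped, and its log2 fold changes lay between -0.09 and -0.00 in the 4 pairwise comparisons, with edgeR adjusted p of at least 0.441. *Pdk4* was at 382, 529 and 699 CPM (mean 537 ± 145) and 256, 399 and 525 CPM (mean 390.0 ± 128) in sedentary controls and PBM mice. Its fatigued levels were 526, 815 and 959.6 CPM (mean 793 ± 167) and 467, 708 and 1156 CPM (mean 746 ± 276). Within each group *Pdk4* mice were spread widely, and the groups overlapped. *Pdk4* rose in PBM mice by 0.94 ± 0.24 (adjusted p = 0.00669) and gave 0.56 ± 0.24 in controls (adjusted p = 0.112), with a difference of 0.37 ± 0.34 (adjusted p = 0.946). With PBM at rest the value was -0.45 ± 0.22 (adjusted p = 0.649).

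**Figure D4:**
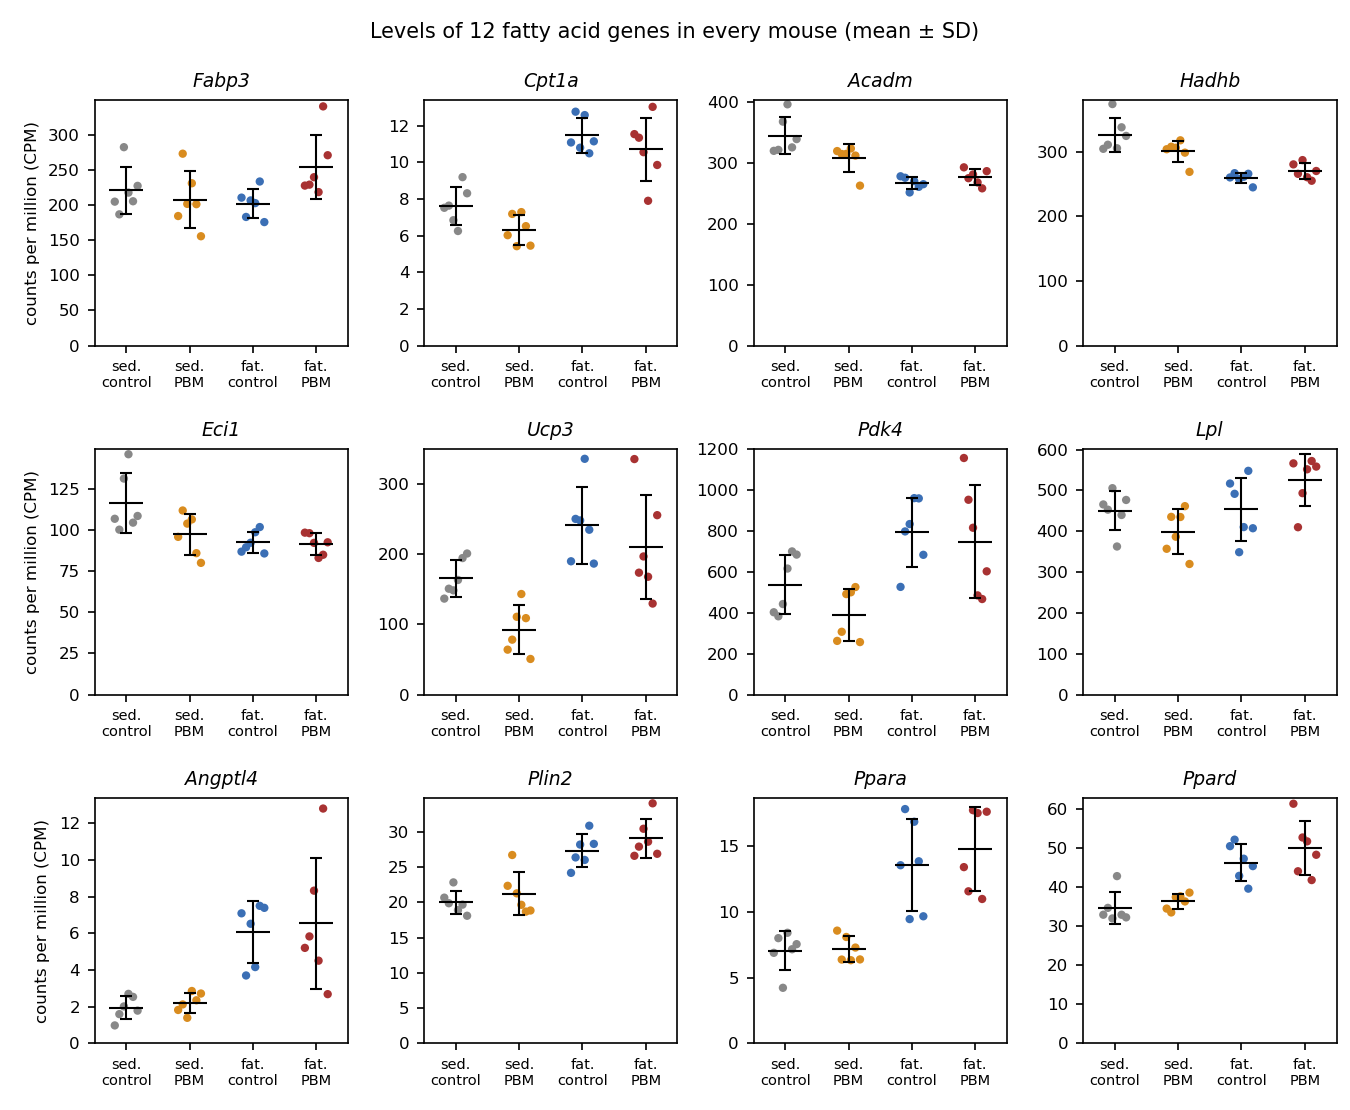
CPM of 12 of the 40 genes in each of 24 mice by group (points), with the mean and SD of 6 mice as bars. *Ppara*, *Ppard* and *Angptl4* stand higher in both fatigued groups, *Acadm* and *Hadhb* lower, and *Ucp3* has its lowest group in sedentary PBM mice at a mean of 92.7 CPM.

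Fat release and storage held the largest rise. *Angptl4* was at 0.981, 1.90 and 2.701 CPM (mean 1.94 ± 0.633) in sedentary controls and 3.70, 6.81 and 7.50 CPM (mean 6.06 ± 1.69) in fatigued controls. PBM mice had 1.39, 2.24 and 2.86 CPM (mean 2.21 ± 0.551) at rest and 2.69, 5.52 and 12.8 CPM (mean 6.56 ± 3.57) after exhaustion. Every fatigued control was above every sedentary control, and among PBM mice 5 of 6 fatigued mice were above every sedentary mouse, while number 6 lay among the sedentary values. *Angptl4* rose by 1.65 ± 0.30 in controls (edgeR adjusted p = 0.000476) and 1.57 ± 0.30 in PBM mice (adjusted p = 0.000394). With PBM it gave 0.20 ± 0.23 at rest (adjusted p = 0.809) and 0.11 ± 0.32 after exhaustion (adjusted p = 0.9998). The second value changed sign without fatigued PBM 5, to -0.19 ± 0.27.

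*Lpl*, whose product *Angptl4* inhibits, was at 363, 459 and 506 CPM (mean 451 ± 48.5) in sedentary controls and 319.8, 411 and 462 CPM (mean 399 ± 54.2) in sedentary PBM mice. Fatigued controls had 349, 451 and 548 CPM (mean 454 ± 76.7) and fatigued PBM mice 409.9, 555 and 572 CPM (mean 525 ± 63.3). Among fatigued PBM mice 4 of 6 were above every fatigued control and 5 of 6 above every sedentary PBM mouse. *Lpl* rose from sedentary to fatigued in PBM mice by 0.40 ± 0.11 (edgeR adjusted p = 0.00863), against 0.01 ± 0.11 in controls (adjusted p = 0.959). The difference was 0.39 ± 0.15 (unadjusted p = 0.0191, adjusted p = 0.946). With PBM the values were -0.17 ± 0.10 at rest (adjusted p = 0.677) and 0.21 ± 0.11 after exhaustion (unadjusted p = 0.0828, adjusted p = 0.9998).

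*Plin2* was at 18.1, 19.8 and 22.8 CPM (mean 19.999 ± 1.64) in sedentary controls and 24.2, 27.3 and 30.9 CPM (mean 27.3 ± 2.31) in fatigued controls. PBM mice had 18.7, 20.5 and 26.7 CPM (mean 21.2 ± 3.03) and 26.6, 28.2 and 34.0 CPM (mean 29.1 ± 2.79). Controls lay wholly apart, and a single sedentary PBM mouse reached the fatigued range. It rose by 0.45 ± 0.08 in controls (edgeR adjusted p = 0.000562) and 0.45 ± 0.08 in PBM mice (adjusted p = 0.000297), and PBM gave 0.09 and 0.09 at rest and after exhaustion.

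*Lipe*, which splits diacylglycerol, was at 17.9, 20.6 and 26.4 CPM (mean 21.1 ± 2.87) in sedentary controls and 22.3, 26.0 and 31.6 CPM (mean 26.6 ± 3.15) in fatigued controls. Sedentary PBM mice had 16.9, 19.8 and 21.7 CPM (mean 19.6 ± 1.87) and fatigued PBM mice 21.049, 26.7 and 34.5 CPM (mean 26.6 ± 4.68). Sedentary control 4 alone reached the fatigued range among controls, and fatigued PBM 6 alone fell within the sedentary range among PBM mice. *Lipe* rose by 0.33 ± 0.11 in controls (edgeR adjusted p = 0.0275, 0.000712 to 0.0544 over the alternatives), a call lost in 5 of 24 single-mouse omissions, most strongly without sedentary control 1 (adjusted p = 0.0669) and with the length trend removed with replicate block (0.34, adjusted p = 0.0544), and by 0.44 ± 0.11 in PBM mice (adjusted p = 0.00276). With PBM it gave -0.10 and 0.00.

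*Pnpla2*, adipose triglyceride lipase, the first lipase of the droplet, was at 281, 307 and 429 CPM (mean 332 ± 54.4) and 252, 294 and 319 CPM (mean 293 ± 24.003) in sedentary controls and PBM mice. In fatigued mice it was at 276, 300.2 and 319.5 CPM (mean 298 ± 19.1) and 232, 308 and 359.8 CPM (mean 303 ± 43.9). All groups overlapped, and its log2 fold changes from sedentary to fatigued were -0.15 ± 0.10 in controls and 0.05 ± 0.10 in PBM mice (edgeR adjusted p = 0.286 and 0.738). *Plin5* was at 11.4, 14.6 and 26.3 CPM (mean 15.9 ± 5.44) and 10.6, 13.1 and 17.1 CPM (mean 13.7 ± 2.76) in sedentary controls and PBM mice. Its fatigued levels were 12.4, 13.4 and 17.6 CPM (mean 14.0 ± 1.91) and 12.6, 18.7 and 23.0 CPM (mean 17.8 ± 4.30). The groups overlapped, with sedentary control 4 the highest of all. *Plin5* gave 0.35 ± 0.15 with PBM after exhaustion (unadjusted p = 0.0350, adjusted p = 0.9998; exact permutation p = 0.0952) and -0.21 ± 0.18 at rest (adjusted p = 0.753).

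Both nuclear receptors rose from sedentary to fatigued muscle in both treatments. *Ppara* was at 4.23, 7.35 and 8.41 CPM (mean 7.04 ± 1.48) in sedentary controls and 9.45, 13.7 and 17.8 CPM (mean 13.5 ± 3.50) in fatigued controls. PBM mice had 6.32, 6.84 and 8.57 CPM (mean 7.17 ± 0.980) at rest and 11.0, 15.5 and 17.7 CPM (mean 14.8 ± 3.19) after exhaustion. No fatigued mouse reached down to a sedentary mouse of its treatment. *Ppara* rose by 0.94 ± 0.17 in controls (edgeR adjusted p = 0.000411) and 1.05 ± 0.17 in PBM mice (adjusted p = 7.36e-05), and PBM gave 0.03 and 0.13.

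*Ppard*, the more abundant receptor at 10.6 against 2.06 CPM per kb, was at 32.1, 33.0 and 42.9 CPM (mean 34.7 ± 4.14) in sedentary controls and 39.7, 46.4 and 52.3 CPM (mean 46.4 ± 4.70) in fatigued controls. PBM mice had 33.6, 37.0 and 38.7 CPM (mean 36.4 ± 1.97) and 41.9, 50.1 and 61.5 CPM (mean 50.1 ± 7.01). Sedentary control 4 alone reached the fatigued range, and the PBM groups lay wholly apart. *Ppard* rose by 0.42 ± 0.09 in controls (edgeR adjusted p = 0.00131) and 0.46 ± 0.09 in PBM mice (adjusted p = 0.000326), and PBM gave 0.08 and 0.11.

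Promoter sequence was read for the 40 genes and played no part in choosing them. RefSeq promoter windows, 250 bases before to 50 after a start on GRCm38.p6, matched 34 of the 40 genes with 42 windows, out of 32841 windows in all (none was used for *Acaa2*, *Acot13*, *Angptl4*, *Cpt1b*, *Decr1* and *Lpl*), and the median GC content was 60.7% in the matched windows against 52.7% in all. The half-site AGGTCA, bound by many nuclear receptors, was searched on both strands and lies in 16.3% of all windows and in 11 of the 42, those of 10 genes: *Acacb*, *Acadm*, *Acadvl*, *Acsl6*, *Cd36*, *Cpt1a*, *Echs1*, *Plin2*, *Plin5* and *Ucp3*. Its paired form AGGTCANAGGTCA, which contains the half-site at both ends, lies in 0.0396% of all windows and in 0 of the 34 genes. The extended form TCAAGGTCA, which also contains the half-site, lies in 0.423% of windows and in that of *Acsl6*. GTAAACA lies in 3.65% of windows and in that of *Lipe*, and CACGTG in 7.15% and in those of *Lipe*, *Pdk2*, *Plin2* and *Slc27a1*; both were searched on both strands, and neither contains the half-site. A match is a run of letters, and none was tested for enrichment or binding.

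4 windows are shown because their genes gave the clearest rises, the clearest fall and the largest PBM value among those with a half-site, with AGGTCA or its reverse complement TGACCT in capitals. *Cpt1a* is at chr19:3323051-3323350 (plus strand), *Plin2* at chr4:86670010-86670309 (minus strand), *Acadm* at chr3:153944594-153944893 (minus strand) and *Ucp3* at chr7:100472741-100473040 (plus strand), all on GRCm38.p6 and each printed 5′ to 3′ along the gene. *Ucp3* holds 2 half-sites and the others 1 each.
Cpt1a: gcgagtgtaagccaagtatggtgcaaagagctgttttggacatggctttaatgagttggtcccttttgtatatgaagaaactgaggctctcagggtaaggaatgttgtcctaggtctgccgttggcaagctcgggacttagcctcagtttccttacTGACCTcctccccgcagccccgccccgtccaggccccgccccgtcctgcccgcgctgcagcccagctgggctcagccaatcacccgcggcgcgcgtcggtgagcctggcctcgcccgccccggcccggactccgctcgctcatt
Plin2: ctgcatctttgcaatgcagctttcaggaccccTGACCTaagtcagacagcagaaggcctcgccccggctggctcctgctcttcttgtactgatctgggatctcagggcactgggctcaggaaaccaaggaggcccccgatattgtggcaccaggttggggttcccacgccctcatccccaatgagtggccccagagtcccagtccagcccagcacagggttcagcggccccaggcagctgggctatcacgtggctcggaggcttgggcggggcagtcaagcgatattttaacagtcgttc
Acadm: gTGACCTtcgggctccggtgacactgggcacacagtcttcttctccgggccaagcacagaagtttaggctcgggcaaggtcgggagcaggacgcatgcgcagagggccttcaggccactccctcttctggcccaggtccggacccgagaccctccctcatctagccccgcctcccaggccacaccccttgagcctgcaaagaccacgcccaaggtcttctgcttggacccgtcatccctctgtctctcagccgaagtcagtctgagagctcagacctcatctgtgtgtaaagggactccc
Ucp3: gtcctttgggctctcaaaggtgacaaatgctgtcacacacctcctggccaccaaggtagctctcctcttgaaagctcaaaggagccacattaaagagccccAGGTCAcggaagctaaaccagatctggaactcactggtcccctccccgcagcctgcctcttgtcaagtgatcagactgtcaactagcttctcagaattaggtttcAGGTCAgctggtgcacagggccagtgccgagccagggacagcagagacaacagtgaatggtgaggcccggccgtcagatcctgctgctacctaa

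*Hadha* and *Hadhb* stand head to head on chromosome 5, *Hadha* (ENSMUSG00000025745, chr5:30118304-30155162) on the minus strand and *Hadhb* (ENSMUSG00000059447, chr5:30155248-30184593) on the plus strand. Their RefSeq windows, chr5:30154931-30155230 and chr5:30155003-30155302, overlap on GRCm38.p6. The window is shown along *Hadhb* because the subunits share most of it, in lower case throughout since it holds none of the motifs searched.
Hadhb: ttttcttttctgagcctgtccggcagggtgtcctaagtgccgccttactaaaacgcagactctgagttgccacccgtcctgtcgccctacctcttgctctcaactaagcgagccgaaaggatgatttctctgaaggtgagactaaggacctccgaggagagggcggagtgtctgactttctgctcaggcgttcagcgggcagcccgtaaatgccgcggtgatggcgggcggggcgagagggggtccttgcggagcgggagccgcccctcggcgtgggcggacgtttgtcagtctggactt

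Genes of neighbouring pathways are counted from lists set down beside the 40, first for fatigued against sedentary controls and then in PBM mice, with edgeR adjusted p throughout. Over all genes tested 9.1% rose and 9.49% fell in controls, and 14.1% and 12.7% in PBM mice, and no list was tested as a set. Of 24 other genes of mitochondrial fatty acid oxidation, 2 rose and 3 fell in controls and 3 rose and 2 fell in PBM mice. *Acsl3*, a further acyl-CoA synthetase, rose by 0.76 ± 0.16 in controls (adjusted p = 0.00131), and *Pcca*, of propionyl-CoA carboxylase, by 0.26 ± 0.06 (adjusted p = 0.00601). Of 17 peroxisomal oxidation genes tested, 1 rose and 5 fell in controls and 1 rose and 7 fell in PBM mice, with *Pex11a*, of peroxisome division, at -0.36 ± 0.08 (adjusted p = 0.00258) and *Ehhadh*, the peroxisomal bifunctional enzyme, at -0.53 ± 0.12 (adjusted p = 0.00281).

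Of 20 genes of fatty acid and triglyceride synthesis, 3 rose in controls and 6 rose and 1 fell in PBM mice, led by *Lpin1*, a phosphatidate phosphatase and coactivator, from 345 ± 54.9 to 544 ± 45.4 CPM in controls (0.65 ± 0.10, adjusted p = 9.25e-05), then *Elovl1*, a fatty acid elongase (0.56 ± 0.14, adjusted p = 0.00786), both by edgeR. Of 18 partners and coactivators of the PPAR receptors, 4 rose and 1 fell in each treatment, and *Ppargc1a*, the coactivator of mitochondrial genes, rose from 37.4 ± 5.02 to 161 ± 72.9 CPM in controls (2.10 ± 0.34, edgeR adjusted p = 0.000229).

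Of 12 genes of pyruvate dehydrogenase and its control, 3 fell in controls and 5 in PBM mice, with *Pdp1*, the phosphatase that reactivates the complex, from 97.4 ± 14.9 to 54.7 ± 8.53 CPM in controls (-0.83 ± 0.12, edgeR adjusted p = 2.3e-05), and *Mpc2*, of the mitochondrial pyruvate carrier, at -0.37 ± 0.08 (adjusted p = 0.00128). Of 21 citric acid cycle genes, 4 fell in controls, among them *Sdhd* and *Sdhb* of succinate dehydrogenase at -0.37 ± 0.09 and -0.35 ± 0.09 (edgeR adjusted p = 0.00372 and 0.00855), and 1 rose and 3 fell in PBM mice. With the length trend removed, 1 gene of the first list and 0 of the second fell in controls, beside 592 of all genes against 1434 without that step. Of 23 acute exercise genes tested, 17 rose and 1 fell in controls and 17 rose in PBM mice, with *Atf3* and *Mafk*, transcription factors induced by stress, at 4.28 ± 0.40 and 1.18 ± 0.15 in controls (edgeR adjusted p = 5.5e-07 and 8.15e-06).

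With PBM, 1 gene passed on the 9 lists set down: *Egr1*, an immediate early factor of the acute exercise list, rose at rest from 2.25 ± 0.566 to 17.7 ± 10.4 CPM (2.98 ± 0.38, edgeR adjusted p = 0.0139). DESeq2 called 1 higher and 2 lower on that list at rest and none on the others, and limma voom none. Over all genes DESeq2 called 22 higher and 38 lower at rest, and limma voom 11 and 36. With all 24 mice in a single model no gene was called higher at rest, *Egr1* included. At unadjusted p under 0.05 the acute exercise list held 3 higher and 5 lower of 23 at rest, against 3.33% and 4.3% of all genes. Each other list held at most 2 higher and 2 lower. After exhaustion no list had more than 1, against 1.08% higher and 0.501% lower of all genes.

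Markers of other cells also differed between sedentary and fatigued muscle. Of 10 fast fibre markers, 4 rose in controls and 3 in PBM mice, and their sum was 151831, 182028 and 192973 CPM in fatigued controls and 158796, 176969 and 188608 CPM in fatigued PBM mice, against 126790.0, 145346 and 153701 CPM in sedentary PBM mice, with *Myh4* the most abundant throughout. Of 8 macrophage markers, 1 rose in controls and 6 in PBM mice, with sums of 44.3, 67.6 and 118 CPM, 34.5, 44.8 and 65.1 CPM, 65.6, 83.4 and 121 CPM and 46.6, 79.6 and 171 CPM in sedentary controls, sedentary PBM, fatigued controls and fatigued PBM mice and *Lyz2* the most abundant. Of 7 markers of fibro-adipogenic progenitors, the connective tissue precursors of muscle, 1 rose in controls and 5 in PBM mice, with sums of 691, 872 and 1064 CPM, 603, 657 and 1089 CPM, 823, 1470.2 and 1890.3 CPM and 886, 1329.8 and 3717 CPM in the same order, the highest of all in fatigued PBM 5, and *Col1a2* the most abundant. With PBM at rest all 8 macrophage markers and all 7 progenitor markers lay below 0, with medians of -0.57 and -0.18, beside the 34 of 40 fatty acid genes below 0, and none passed in edgeR. Of the slow fibre markers 6 of 9 lay below 0 at rest (median -0.19), and of the fast fibre markers 4 of 10 (median 0.04), with none passing. In the difference of the PBM effects all 8 macrophage, all 7 progenitor and all 9 slow fibre markers lay above 0, with medians of 0.67, 0.31 and 0.30, beside 37 of the 40, and none passed. Of 10 fast fibre markers 6 lay below 0 in that difference, with a median of -0.08. At rest, 1 macrophage marker was called lower with PBM by DESeq2 and 1 by limma voom. Among the progenitor markers these counts were 0 and 1. After exhaustion all 7 progenitor, 8 of 9 slow fibre and 6 of 8 macrophage markers lay above 0 with PBM. Their medians were 0.16, 0.28 and 0.14. Of 10 fast fibre markers 9 lay below 0 there, beside 10 of the 40 fatty acid genes, and none passed in edgeR.

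Slow fibre markers numbered 1 rising and 1 falling of 9 in controls and 1 rising in PBM mice, with *Myl3* the most abundant and sums of 99.6, 130.0 and 202 CPM and 113, 158 and 222 CPM in fatigued controls and fatigued PBM mice. Of 8 adipocyte markers tested, none passed in controls by edgeR (1 higher at unadjusted p under 0.05) and 2 rose in PBM mice, all 8 lay above 0 in both treatments, with medians of 0.50 and 0.72, and the summed level was 204, 222 and 327 CPM, 216, 251 and 308 CPM and 199, 262 and 393 CPM in sedentary PBM, fatigued controls and fatigued PBM mice. Among 10 endothelial markers 2 rose in controls, and 3 rose and 1 fell in PBM mice, with *Cdh5* the most abundant and sums of 402, 430.4 and 478 CPM, 332, 411 and 536 CPM, 424, 479 and 599.6 CPM and 459, 498 and 556 CPM in the 4 groups. Of 5 erythrocyte markers tested none passed, and the lone keratinocyte marker tested, *Krt10*, fell in PBM mice by -1.52 ± 0.38 (edgeR adjusted p = 0.00493). The 5 keratinocyte markers summed to 25.6 and 9.36 CPM in sedentary PBM 4 and 2, at most 2.54 CPM in the other sedentary PBM mice and between 1.16 and 1.97 CPM in fatigued PBM mice. No marker was at 0 in every mouse. The part of these cell types in the values of the 40 genes was not tested.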

How the data were processed

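The deposited files held integer read counts for each Ensembl gene, 1 file for each of 24 mice. The authors' processing notes name Trimmomatic, STAR 2.7.1a, Picard 2.20.4, StringTie 2.0.4, featureCounts 1.6.0, HTSeq and the build GRCm38, with no role or order; the annotation release and strand setting are not given in the sources used here. Of 55487 genes, 55227 had an entry in GENCODE M21, used for symbols, positions and transcript lengths.

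Genes were filtered with filterByExpr (minimum count 10), leaving 14177 for sedentary, 14574 for fatigued and 15108 for all 24 mice, scaled by the trimmed mean of M values, and fitted by robust quasi-likelihood in edgeR 4.0.16 under R 4.3.3. PBM comparisons used the 12 mice of a state; the others used 1 model of all 24. Alternatives were dropping the filter, a stricter filter of 10 counts in each library, DESeq2 size factors, DESeq2 1.42.0 and limma 3.58.1 voom with quality weights. Others were 1 model of all 24 mice, replicate number as fixed terms in the model (the replicate block) and removal of a loess trend on transcript length. Each mouse was also left out in turn, and, chosen after the values were seen, 3 mice together. Single values were tested by exact two-sided permutation of 6 mice against 6. Scripts were tested on simulated data.

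Lists beside the 40 genes covered other mitochondrial fatty acid oxidation, peroxisomal fatty acid oxidation, fatty acid and triglyceride synthesis, PPAR partners and coactivators, other lipid droplet and lipolysis genes, pyruvate dehydrogenase and its control, the citric acid cycle, ketone body use and the acute exercise response. Some results of these lists are not reported here. The members and lists were chosen with earlier results of these data known.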

Additional observations from a re-analysis of the deposited data

Results flagged for a closer look

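A mouse is set apart here where the ratio of Dixon within its group of 6 passed its critical value, which chance exceeds in about 1 in 20 groups. This held in 16 of 160 groups, each a gene in a group of mice. Values are CPM, with the lowest and highest of the other 5 mice in brackets. Sedentary control 4 stood above its group in *Slc27a1* 118.249 (68.1 to 84.2), *Acads* 124.859 (73.3 to 85.8), *Echs1* 190.253 (126 to 144), *Etfb* 23.9354 (7.20 to 10.6), *Plin5* 26.3289 (11.4 to 16.2) and *Ppard* 42.908 (32.1 to 34.8). Sedentary control 3 stood above in *Hadh* 178.015 (140.3 to 154), *Acaa2* 194.269 (145 to 155) and *Decr1* 129.556 (107 to 115), and below in *Ppara* 4.22607 (6.89 to 8.41). Sedentary PBM 6 stood below in *Acadvl* 348.232 (442 to 478), *Acadm* 262.798 (312 to 324), *Decr1* 94.7605 (108 to 111) and *Etfdh* 131.103 (169 to 184). Fatigued control 5 stood above in *Acsl1* 328.631 (232 to 249) and fatigued PBM 1 in *Echs1* 145.905 (92.3 to 112). The cause was not tested.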

How the results depend on the processing

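The limits are 6 mice a group, 1 muscle, 1 time point, exercise confounded with sequencing project, run times that differed between mice, and counts whose annotation and strand setting are unknown. Whether replicate numbers mark pairs of mice is not known. Within the sedentary project the profiles of mice with the same number correlated between -0.0715 and 0.0664, with 0 of 6 over 0.1, and within the fatigued project between -0.0846 and 0.325, with 4 of 6 over 0.1. Where a value moved, the cause was not tested. Of the 3 mice called distant below, sedentary PBM 6 was picked on the 40 genes themselves.

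For PBM in sedentary muscle the members called lower were 1 with DESeq2 and 1 with DESeq2 on the filtered genes, against 0. All genes called there numbered 4, and 1 with all 24 mice in a single model, 11 with the replicate block, 13 with the length trend removed with replicate block, 15 with the length trend removed, 16 with no filter, 19 with 3 distant mice left out, 47 with limma voom, 60 with DESeq2 and 62 with DESeq2 on the filtered genes. For PBM in fatigued muscle they numbered 0, and 1 with the replicate block, 1 with the length trend removed with replicate block, 2 with DESeq2 and 2 with DESeq2 on the filtered genes. For the difference of the PBM effects they numbered 1, and 0 with the length trend removed, 0 with the length trend removed with replicate block and 3 with DESeq2 on the filtered genes.

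For fatigued against sedentary controls the members called lower were 12, and 3 with the length trend removed and 2 with the length trend removed with replicate block. All genes called were 2809, and 1663 with the length trend removed with replicate block and 4905 with limma voom. The log2 fold change of *Acot13* was -0.29, and 0.0018 with the length trend removed and 0.00522 with the length trend removed with replicate block. In PBM mice the members called lower were 3, and 1 with the length trend removed, 1 with the length trend removed with replicate block, 5 with limma voom and 6 with 3 distant mice left out. With the replicate block alone the calls of *Echs1* and *Eci2* in controls (-0.30 and -0.21, adjusted p = 0.0546 and 0.0530) and *Hadhb* in PBM mice (-0.15, adjusted p = 0.0510) were lost, with log2 fold changes of -0.30, -0.21 and -0.16 without the block.

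Leaving out 1 mouse at a time, all genes called ran 2–20 for PBM in sedentary muscle, 0–0 in fatigued muscle, 1–3 for the difference, 2078–3770 for fatigued against sedentary controls and 3245–4768 in PBM mice. Members called ran 0–0 for both PBM effects and their difference, 5–7 higher and 6–13 lower in fatigued controls, and 9–10 higher and 1–6 lower in fatigued PBM mice. The median over the members ran from -0.131 to -0.0709, 0.0275 to 0.0654, 0.117 to 0.188, -0.183 to -0.111 and -0.00209 to 0.0711 in the same order of comparisons.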
